A study of Homo sapiens with 4 samples.

Results

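In all, 10 genes of the desmosome and of the plakin family were followed in PC-3 cells, a line from a prostate cancer metastasis, with and without overexpression of RRM2, the small subunit of ribonucleotide reductase. The 10 genes were taken by symbol from a table of 17634 genes: the desmosomal cadherins DSC2 and DSG2, the armadillo proteins JUP, PKP2, PKP3 and PKP4, the plakins DSP, PPL and EVPL, and the tetraspan gene PERP. All 10 were in the table and all 10 passed the filter on low counts, which left 15781 genes. RNA-seq was available for 2 libraries of cells with the empty vector (PC-3-EV) and 2 libraries of cells with RRM2 (PC-3-RRM2). The study's methods describe lentiviral transduction with RRM2 and stable lines kept under puromycin, and the labels name the control only as empty vector. The sources used here do not say whether they were pools or clones, or whether replicate libraries were grown apart. What the p-values weigh is hence the scatter among these libraries, possibly a technical one.

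A desmosome is a patch of membrane where neighbouring epithelial cells hold together and where each cell anchors its intermediate filaments. Desmogleins and desmocollins reach across the gap. Their tails bind plakoglobin and the plakophilins, and these bind desmoplakin, which grips the keratin filaments. Periplakin and envoplakin are relatives of desmoplakin that form part of the cornified envelope of stratified epithelia. In prostate epithelium the desmosome is among the junctions that join luminal and basal cells.

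The libraries held between 30149181 and 37801301 estimated counts. RRM2 had 823 and 635 counts with the empty vector and rose to 2933 and 2996 with RRM2, 4.59-fold higher (edgeR quasi-likelihood adjusted p = 2.53e-06), which includes any reads of the transgene. The simple-epithelial keratins KRT8 and KRT18 were at 115 ± 12.3 and 106 ± 4.93 CPM in PC-3-EV (CPM are counts divided by the TMM-adjusted library size, mean ± SD, n = 2), whereas the prostate marker KLK3 had at most 114 counts in a library. Of the 6 epithelial and prostate markers 1 rose (EPCAM). The catenin gene CTNNA1, which PC-3 cells are known to have lost, had 15 to 20 counts in every library. It was named after its values were seen. Of the marker lists for other cells, the endothelial list summed to 81.8 to 82.7 CPM in PC-3-EV and 39.8 to 40.2 CPM in PC-3-RRM2. Of its 5 tested genes 4 fell (ROBO4, PECAM1, KDR and ESAM), while CDH5 was at 0 in PC-3-EV with 6 and 9 counts in PC-3-RRM2 and VWF had at most 4 counts. ESAM was not called by DESeq2 (adjusted p = 0.0947), in glmTreat, the edgeR test of whether a change exceeds 1.5-fold (0.438), or without PC-3-EV replicate 2 (0.108) or PC-3-RRM2 replicate 2 (0.0577), and KDR was not called in glmTreat (0.339). The fibroblast list summed to 91.1 to 107 CPM in PC-3-EV and to 72.1 to 98.2 CPM in PC-3-RRM2, and 1 of its 5 tested genes rose (LUM) and 2 fell (PDGFRA and COL3A1). COL3A1 was not called by DESeq2 (adjusted p = 0.143), in glmTreat, or without PC-3-EV replicate 1 (0.0710), PC-3-EV replicate 2 (0.0950) or PC-3-RRM2 replicate 2 (0.0936). The leukocyte list summed to 103 to 109 CPM in PC-3-EV and to 93.1 to 108 CPM in PC-3-RRM2, nearly all of it CD68, and 1 of 3 tested genes rose (CSF1R), while CD3E was not analysed here and PTPRC had at most 18 counts. CSF1R, with 3 and 0 counts in PC-3-EV, was not called by DESeq2 (adjusted p = 0.0546), in glmTreat (0.0586) or without PC-3-EV replicate 2 (0.0685). The part of other cells in the values that follow was not tested.

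Of the 10 genes, 1 rose (PKP4), 1 fell (DSC2) and 8 were not called, where a call required both a fold change above 1.5 and an adjusted p under 0.05. Over all genes tested, 18.2% were called, 9.97% higher and 8.19% lower, so that a share of 20% of 10 genes is near the background and is not a result about the group. Without the fold threshold, 3 of the 10 passed the adjusted p (PKP4 and DSG2 higher, DSC2 lower), against 34.2% of all genes, 18.8% higher and 15.5% lower. The values of the groups did not overlap for 5 of the 10 genes (DSP, DSG2 and PKP4 higher, DSC2 and EVPL lower), against 69.0% of all genes, 35.8% higher and 33.2% lower. Their median log2 fold change was 0.03, beside 0.00 for all genes, and the median size of the change regardless of sign was 0.19 on the log2 scale, beside 0.27 for all genes and 0.21 for the 8988 genes at or above the lowest member's mean level of 16.0 CPM. In bulk RNA, fewer cells that express a gene and less of its RNA per cell cannot be told apart.

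**Figure D1:**
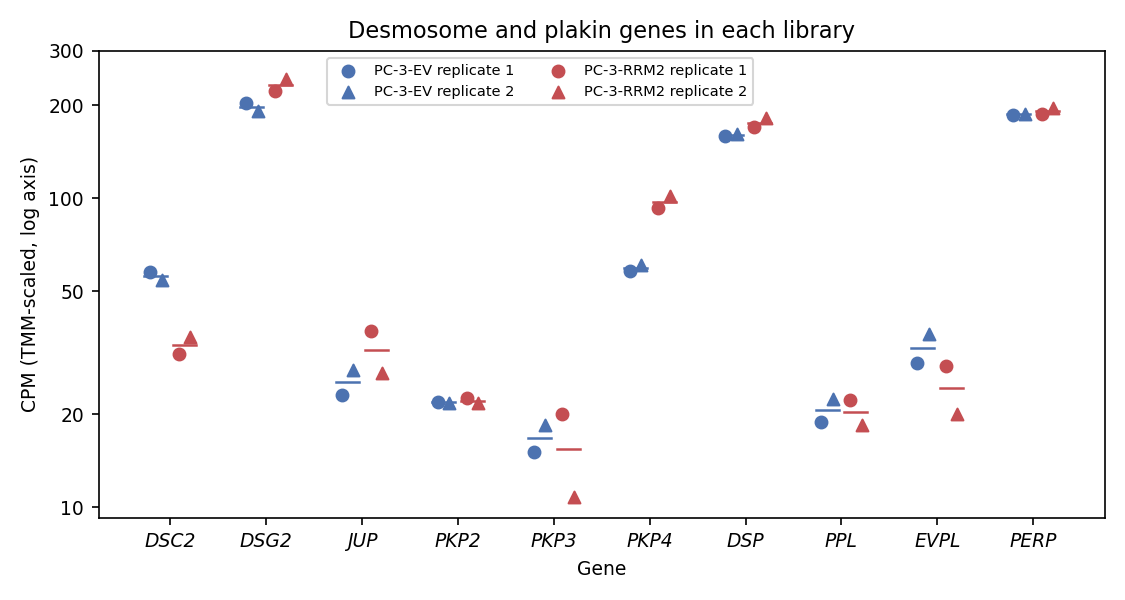
Level of each gene in each library, in CPM on a log axis. Circles are replicate 1, triangles replicate 2, blue PC-3-EV and red PC-3-RRM2, and the short lines are group means. DSC2 is lower and PKP4 higher in both PC-3-RRM2 libraries, PERP and PKP2 lie at one height, and the 2 PC-3-RRM2 libraries lie far apart for PKP3.

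Of the desmosomal cadherins, DSC2 fell and DSG2 was not called. DSC2 (chromosome 18, 31065974 to 31102432, minus strand, GRCh38), the desmocollin found in most epithelia, was at 57.5 and 54.1 CPM in PC-3-EV against 31.2 and 35.5 CPM in PC-3-RRM2. The PC-3-RRM2 libraries were both below the PC-3-EV libraries. The fold change was 0.598 with a 95% interval of 0.510 to 0.700 (edgeR adjusted p = 0.00106, log2 fold change -0.74, SE 0.10). DSG2 (chromosome 18, 31498004 to 31549007, plus strand), the desmoglein of simple epithelia, was at 203 and 191 CPM in PC-3-EV against 223 and 243 CPM in PC-3-RRM2. The groups did not overlap, yet the fold change of 1.18 (interval 1.04 to 1.34, adjusted p = 0.0437) lay below the threshold of 1.5 and the gene was not called. Its adjusted p was 0.0596 with RLE scaling, 0.0640 with DESeq2 and 0.168 with the replicate number as a block in edgeR. It was 0.0469 with upper-quartile scaling, 0.0440 with limma-voom, 0.0328 without a filter and 0.0277 with a filter of 1 CPM in 2 libraries. Leaving out 1 library gave log2 fold changes from 0.15 to 0.30. With DSC2 lower and DSG2 not, the number of DSG2 counts per DSC2 count, a ratio taken within a library and so free of scaling between libraries, was 3.53 in each PC-3-EV library (exact 95% counting intervals 3.36 to 3.70 and 3.34 to 3.73). It was 7.14 and 6.83 in PC-3-RRM2 (6.67 to 7.65 and 6.41 to 7.29), a 1.98-fold shift between the groups. With 2 libraries against 2, the smallest p of a two-sided exact permutation test on such a ratio is 1 in 3, so no such test was made. Antisense genes overlap both cadherins at low counts: DSCAS, which overlaps DSC2, had at most 5 counts in a library and DSG2-AS1 at most 9. The call for DSC2 was lost in glmTreat (adjusted p = 0.191).

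Of 3 tested desmosomal genes outside the 10, the desmocollin DSC3 fell, and PKP1 and CDSN (23 to 38 counts, named after its values were seen) were not called. DSC3, which is typical of basal cells of stratified epithelia, was at 39.5 and 37.7 CPM in PC-3-EV against 22.4 and 23.4 CPM in PC-3-RRM2 (fold change 0.593, interval 0.510 to 0.689, edgeR adjusted p = 0.000794). It was likewise not called by glmTreat (adjusted p = 0.143). Its counts per DSC2 count were 0.686 and 0.697 in PC-3-EV against 0.717 and 0.658 in PC-3-RRM2, overlapping between the groups, in a comparison added after the values were seen. DSC1 had 3 to 8 counts in a library and did not pass the filter, and DSG1, DSG3 and DSG4 were not analysed here. Per kb of the longest transcript, DSG2 made up 77.1 ± 0.0963% of the desmosomal cadherin RNA in PC-3-EV against 87.0 ± 0.0256% in PC-3-RRM2 (SD, n = 2). DSC2 and DSC3 together supplied the rest, while the sum over the 3 genes was 43.9 ± 1.79 and 45.9 ± 2.73 CPM per kb.

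The desmosomal cadherin genes lie in 1 cluster on chromosome 18, with the start of DSC3 59.6 kb from that of DSC2 and the start of DSG2 395.6 kb away on the far side. Within 1 Mb of the span from DSC2 to DSG2, 13 genes were in the table and 9 were tested, of which 3 fell (DSC3, DSC2 and B4GALT6) and 0 rose. Over all genes tested, 8.19% were called lower and 9.97% higher. The span was set by DSC2 and DSG2, so DSC2 was in this count from the start. By edgeR at an unadjusted p below 0.05 the further genes in this window were DSG2 and GAREM1, each with a positive log2 fold change. B4GALT6, a galactosyltransferase of glycolipid synthesis beyond DSG2, fell from 21.6 ± 0.554 to 13.2 ± 1.22 CPM (edgeR adjusted p = 0.00289, and 0.371 by glmTreat). DSG2 therefore lay between genes that fell, and TRAPPC8, RNF125, RNF138 and the pseudogene WBP11P1 farther out were not called.

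**Figure D2:**
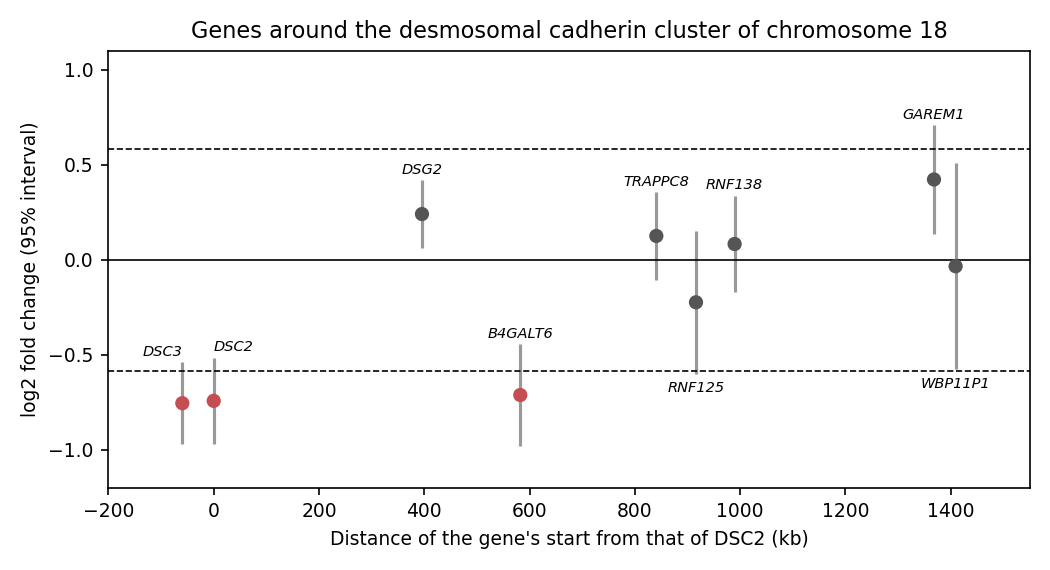
The log2 fold change of each tested gene around the desmosomal cadherins against the distance of its start from that of DSC2 in kb. Bars are 95% intervals, red marks called genes, and dashed lines a fold change of 1.5. DSC3, DSC2 and B4GALT6 lie between -0.76 and -0.71, and DSG2 between them lies at 0.24.

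The sequences at the starts of DSC2, DSC3 and DSG2 are shown because these genes share a cluster in which both desmocollins fell and DSG2 was not called, with that of PKP4, which rose. RefSeq promoters on GRCh38.p14 matched 6 of the 10 genes. PKP2, PKP3, PPL and EVPL had no entry. Each line gives the 250 bases before the RefSeq start nearest to the gene's start in the deposited counts, 5′ to 3′ on the gene's strand. Capitals mark GGGCGG (the GC box bound by SP1-like factors) and CACCTG (the E-box bound by ZEB and SNAI repressors), each on either strand. These RefSeq starts lie inside the gene spans of the deposited counts, so each window reaches past the gene's start there. For DSG2 most of the window, from 31498004 on, lies past that start.
DSC2 (chr18:31102422-31102671, minus strand): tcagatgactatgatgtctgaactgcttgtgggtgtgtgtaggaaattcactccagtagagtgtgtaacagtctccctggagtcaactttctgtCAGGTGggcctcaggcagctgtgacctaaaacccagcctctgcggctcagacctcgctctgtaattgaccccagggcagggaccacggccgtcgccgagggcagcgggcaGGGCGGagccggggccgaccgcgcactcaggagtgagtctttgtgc
DSC3 (chr18:31042743-31042992, minus strand): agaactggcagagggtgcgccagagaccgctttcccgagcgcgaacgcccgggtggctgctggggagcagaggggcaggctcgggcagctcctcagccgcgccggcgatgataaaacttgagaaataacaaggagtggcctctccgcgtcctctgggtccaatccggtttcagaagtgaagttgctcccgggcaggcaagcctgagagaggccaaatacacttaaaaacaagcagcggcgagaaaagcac
DSG2 (chr18:31497927-31498176, plus strand): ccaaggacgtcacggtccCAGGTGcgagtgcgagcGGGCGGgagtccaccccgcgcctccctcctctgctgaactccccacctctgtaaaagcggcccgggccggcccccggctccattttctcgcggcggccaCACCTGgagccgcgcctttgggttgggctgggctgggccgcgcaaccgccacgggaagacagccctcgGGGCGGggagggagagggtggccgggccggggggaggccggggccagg
PKP4 (chr2:158456702-158456951, plus strand): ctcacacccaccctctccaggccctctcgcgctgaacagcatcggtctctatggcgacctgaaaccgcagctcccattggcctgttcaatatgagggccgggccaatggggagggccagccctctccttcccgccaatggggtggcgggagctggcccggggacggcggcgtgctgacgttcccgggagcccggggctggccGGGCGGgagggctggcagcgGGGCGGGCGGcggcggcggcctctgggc
GGGCGG occurred at 1 place in the DSC2 window, at 0 in that of DSC3, at 2 in that of DSG2 and at 3 in that of PKP4, of which 2 overlap. Of all 35116 windows of this length 42.6% held it. All 3 places in the PKP4 window lie past the gene's start at 158456880. CACCTG occurred at 1 place in the DSC2 window and at 2 in that of DSG2, and at 0 in those of DSC3 and PKP4, against 17.5% of all windows. In the DSG2 window 1 place of each motif lies past 31498004. TATAAA and the grainyhead-type letters AACCNGTT, found in 10.7% and 1.49% of all windows, were at 0 places in the 4 windows. The GC content was 59.6% and 60.4% in the windows of the desmocollin genes DSC2 and DSC3, and 75.2% and 73.2% in those of DSG2 and PKP4. Of the other matched genes, DSP, PERP and JUP, none called, had 78%, 77.2% and 63.6%. The window of PKP1, outside the 10, had 67.6%. GGGCGG was at 7 places in the DSP window, at 5 in that of PERP, at 2 in that of JUP and at 1 in that of PKP1, none of them called. CACCTG was at 2 places in the DSP window and at 0 in those of JUP, PERP and PKP1. These are matches of letters in these windows and not binding sites.

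Among the armadillo proteins, PKP4 rose and the others were not called. PKP4 (chromosome 2, 158456880 to 158681428, plus strand), a relative of p120 catenin that is found at desmosomes and at adherens junctions, was at 58.2 and 60.5 CPM in PC-3-EV against 92.9 and 101.7 CPM in PC-3-RRM2. The groups were well apart, and the gap between them was larger than the spread within either. The fold change was 1.64 with a 95% interval of 1.44 to 1.87 (edgeR adjusted p = 0.000576, log2 fold change 0.71, SE 0.08). The call did not hold in glmTreat (adjusted p = 0.202). The overlapping antisense gene PKP4-AS1 also rose (2.16-fold, adjusted p = 0.0233), and its counts over the 4 libraries were 1.41% of those of PKP4. Strand was not stated for the counting, so reads of this pair cannot be told apart with certainty.

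PKP2 (chromosome 12, 32790746 to 32896846, minus strand), the plakophilin of simple epithelia and heart muscle, was the steadiest of the family. It was at 21.9 and 21.7 CPM in PC-3-EV against 22.5 and 21.7 CPM in PC-3-RRM2, with a 95% interval for the fold change of 0.863 to 1.19. A fold change of 1.5 either way lies outside this interval. The number of PKP4 counts per PKP2 count was 2.65 and 2.78 in PC-3-EV against 4.13 and 4.69 in PC-3-RRM2, a 1.62-fold shift without overlap. For PKP3 the counts per PKP2 count were 0.687 and 0.845 in PC-3-EV against 0.887 and 0.497 in PC-3-RRM2, and these overlapped.

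PKP3 (chromosome 11, 392599 to 404908, plus strand), a plakophilin found in nearly all desmosomes, was at 15.1 and 18.4 CPM in PC-3-EV against 19.95 and 10.8 CPM in PC-3-RRM2. The PC-3-RRM2 libraries lay on either side of the PC-3-EV libraries. Its interval of 0.610 to 1.39 was the widest of the 10 genes, and the direction rested on the library used: without PC-3-RRM2 replicate 1 it was called lower (log2 fold change -0.63, edgeR adjusted p = 0.00433), and without PC-3-RRM2 replicate 2 its log2 fold change was 0.26 (adjusted p = 0.149). JUP (chromosome 17, 41754607 to 41786768, minus strand), which encodes plakoglobin, the armadillo protein shared by desmosomes and adherens junctions, was at 23.1 and 27.8 CPM in PC-3-EV against 37.1 and 27.2 CPM in PC-3-RRM2. Its groups overlapped (fold change 1.27, interval 0.980 to 1.64, adjusted p = 0.137), and its log2 fold change was 0.10 without PC-3-RRM2 replicate 1 (adjusted p = 0.496), 0.19 without PC-3-EV replicate 1 (0.517) and 0.55 without PC-3-RRM2 replicate 2 (0.00285), not called in any of these. Against JUP, DSP had 6.89 and 5.83 counts per count in PC-3-EV against 4.57 and 6.66 in PC-3-RRM2, which also overlapped.

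PKP1 is not among the 10 genes but set the make-up of its family. This plakophilin of stratified epithelia was at 654 and 690 CPM in PC-3-EV against 528 and 462 CPM in PC-3-RRM2, with a fold change of 0.736 (interval 0.642 to 0.844, edgeR adjusted p = 0.00590), short of the threshold of 1.5 for a call. Per kb of the longest transcript, PKP1 supplied 85.3 ± 0.167% of the plakophilin RNA in PC-3-EV against 76.7 ± 0.804% in PC-3-RRM2 (SD, n = 2). The share of PKP4 was 7.10 ± 0.0825% and 14.3 ± 2.12%, while PKP2 and PKP3 stayed between 3.40% and 5.67% in every library. With the median transcript length in place of the longest, PKP4 took 16.9% and 30.4%, again higher in PC-3-RRM2. The family's sum was 145 ± 5.74 CPM per kb in PC-3-EV against 118 ± 9.92 CPM per kb in PC-3-RRM2.

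**Figure D3:**
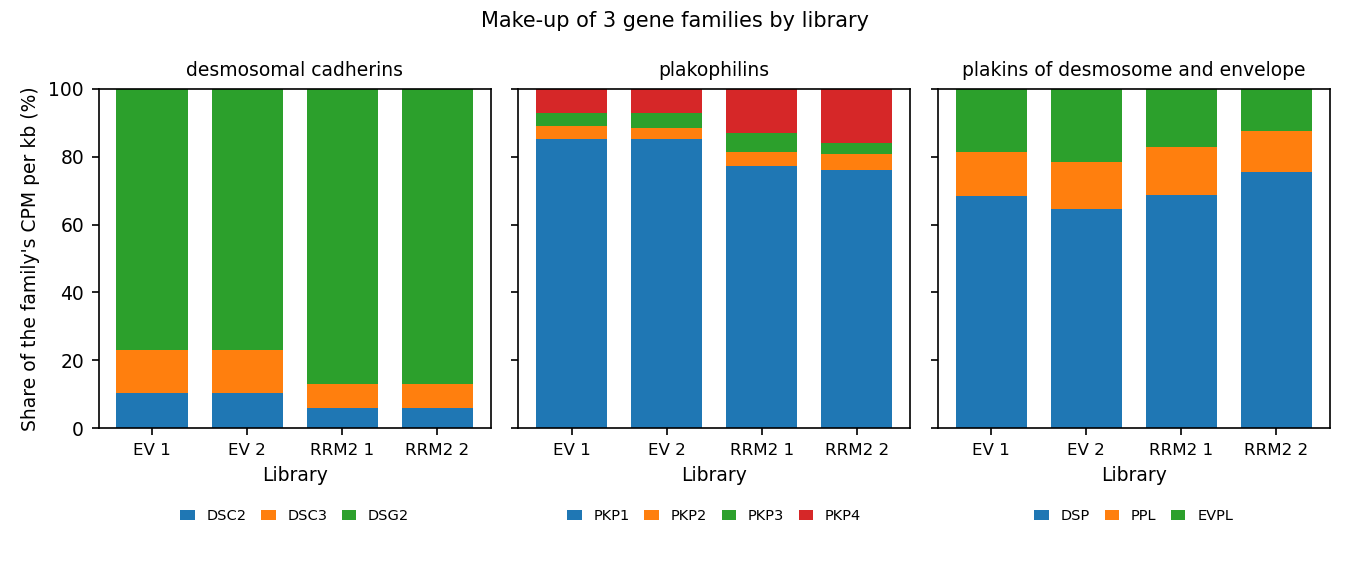
Share of each gene in its family's RNA, as percent of the summed CPM per kb of the longest transcript, for each library. The share of DSG2 is 77.0% and 77.1% in PC-3-EV against 86.9% and 87.0% in PC-3-RRM2, and that of PKP4 goes from 7.05% and 7.16% to 12.8% and 15.8%.

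The plakins were not called. DSP (chromosome 6, 7541575 to 7586717, plus strand), which encodes desmoplakin, the link from the plaque to keratin, was at 159 and 162 CPM in PC-3-EV against 170 and 181 CPM in PC-3-RRM2. The groups did not overlap, but the fold change was 1.09 with an interval of 0.9751 to 1.23 (edgeR adjusted p = 0.198), which leaves out a change of 1.5-fold either way. PPL (chromosome 16, 4882507 to 4937135, minus strand), which encodes periplakin, was between 18.5 and 22.4 CPM in all 4 libraries, and its interval was 0.794 to 1.23. EVPL (chromosome 17, 76006845 to 76027452, minus strand), which encodes envoplakin, the partner of periplakin in the cornified envelope, was at 29.2 and 36.2 CPM in PC-3-EV against 28.6 and 20.04 CPM in PC-3-RRM2. PC-3-RRM2 replicate 1 lay just below the lower PC-3-EV library. EVPL was not called (fold change 0.744, interval 0.561 to 0.987, adjusted p = 0.0976), though it was called lower without PC-3-EV replicate 1 (log2 fold change -0.59, adjusted p = 0.0241) and without PC-3-RRM2 replicate 1 (-0.70, adjusted p = 0.000719). The number of PPL counts per EVPL count was 0.646 and 0.620 in PC-3-EV against 0.779 and 0.923 in PC-3-RRM2. Within the trio DSP supplied 66.5 ± 2.81% of the RNA per kb in PC-3-EV against 72.1 ± 4.84% in PC-3-RRM2. By library the share was 68.52% and 64.55% in PC-3-EV against 68.69% and 75.54% in PC-3-RRM2. Replicate 1 was thus nearly equal in the groups, and the higher mean rested mostly on PC-3-RRM2 replicate 2.

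PERP (chromosome 6, 138088505 to 138107523, minus strand) encodes a tetraspan membrane protein, a target of p53 and p63 that desmosomes of mouse epidermis need. Its level was 186 and 187 CPM in PC-3-EV against 187 and 196 CPM in PC-3-RRM2, and the groups overlapped. The fold change was 1.02 with an interval of 0.916 to 1.15 (edgeR adjusted p = 0.731), the narrowest interval of the 10 genes on the log2 scale.

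**Figure D4:**
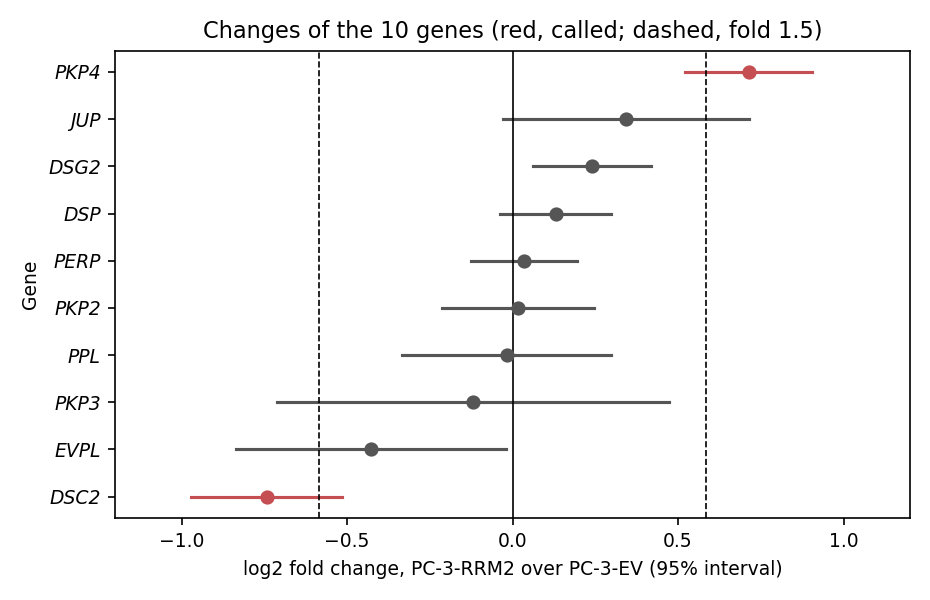
The log2 fold change of each gene in PC-3-RRM2 over PC-3-EV with its 95% interval from the edgeR fit, in order of size. Red marks the called genes and dashed lines a fold change of 1.5. PKP4 at 0.71 and DSC2 at -0.74 stand past the lines, and the interval of DSG2, 0.06 to 0.42, excludes 0 but lies inside them.

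Levels were set in order per kb of the longest GENCODE transcript. In PC-3-EV the order was PERP, DSG2, DSP, PKP4, JUP, PKP3, PKP2, EVPL, DSC2 and PPL, from 43.6 ± 0.176 CPM per kb for PERP to 3.31 ± 0.403 CPM per kb for PPL (SD, n = 2). The ranges of PKP2 and EVPL overlapped, as did those of EVPL and DSC2, and no other neighbours did. By this length PERP, DSG2 and DSP, at 43.6, 33.8 and 16.4 CPM per kb, stood above the rest. In PC-3-RRM2 the order differed only at its foot, where DSC2 at 2.71 ± 0.244 CPM per kb came below PPL at 3.27 ± 0.427. PKP4, at 16.8 ± 1.08 CPM per kb, overlapped there with DSP at 17.9 ± 0.853, and the ranges of PKP3 and PKP2 and of EVPL and PPL also overlapped. This order depends on the length: with the median transcript length PKP4 came first in both groups, because many of its annotated transcripts are short (median 840 bases against 5777 for the longest). DSP then had rank 7 in PC-3-EV and rank 6 in PC-3-RRM2, in place of rank 3 in both.

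The genes whose libraries lay farthest apart were those of high GC content. Transcripts of JUP, PPL, EVPL and PKP3 are 59.5% to 66.7% G or C, and those of the other 6 genes 38.9% to 47.9%. For the former the log2 ratio of PC-3-RRM2 replicate 2 to replicate 1 was between -0.88 (PKP3) and -0.27 (PPL), and that of PC-3-EV replicate 2 to replicate 1 between 0.25 (PPL) and 0.31 (EVPL). For the other 6 genes it was between -0.05 and 0.18 in the PC-3-RRM2 pair and between -0.09 and 0.06 in the PC-3-EV pair. With all genes cut into 10 equal groups by GC content, from the lowest to the highest group, the median log2 ratio went from 0.15 to -0.47 in the PC-3-RRM2 pair and from -0.04 to 0.25 in the PC-3-EV pair.

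When each library's trend with GC content was taken out as an offset in the edgeR fit, an alternative chosen after seeing the data, DSC2 (log2 fold change -0.81, adjusted p = 2.00e-06) and PKP4 (0.69, adjusted p = 2.62e-06) were still called and no other member was. PKP3 then stood at 0.04 (adjusted p = 0.764) and PPL at 0.08 (adjusted p = 0.362). JUP stood at 0.46 (adjusted p = 0.000256) and EVPL at -0.26 (adjusted p = 0.00463), both short of the fold threshold. Without the fold threshold 6 of the 10 genes passed the adjusted p in this fit, against 55.1% of all genes with a GC value. The reason for the trend was not tested.

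**Figure D5:**
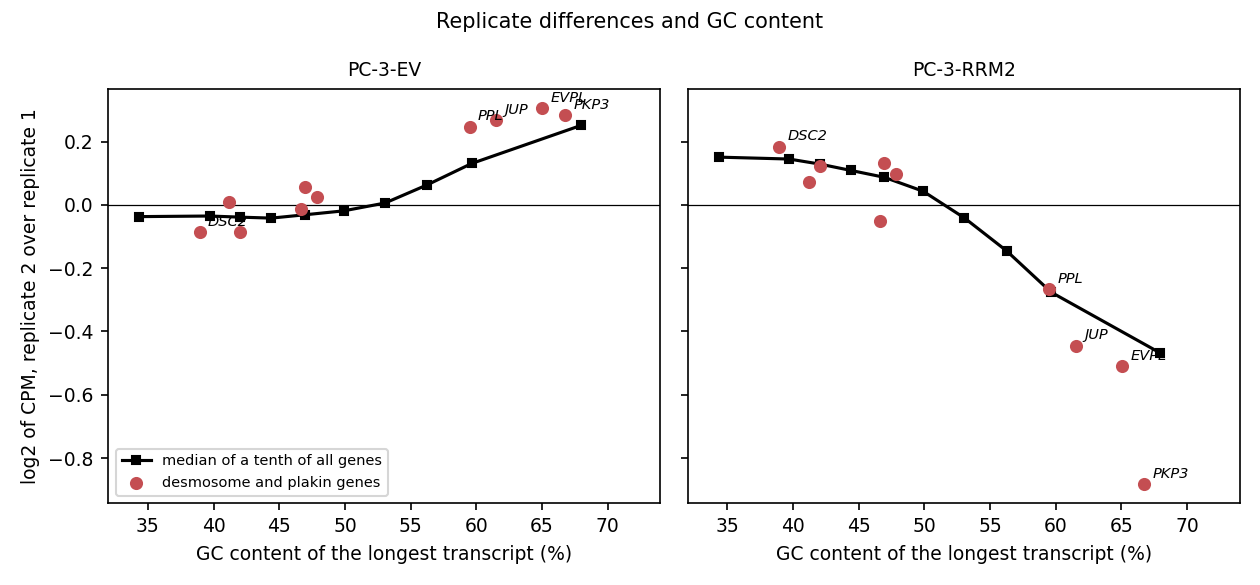
Log2 ratio of CPM in replicate 2 to replicate 1 against the GC content of the longest transcript, for PC-3-EV and PC-3-RRM2. Black squares are medians of 10 equal groups of all genes by GC content, drawn at the middle of their GC range, and red points the 10 genes. The line rises to 0.25 in PC-3-EV and falls to -0.47 in PC-3-RRM2, and PKP3 lies lowest at -0.88.

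Related lists put these values beside those of neighbouring structures. They were written from general knowledge with earlier results of these data known. Of 4 other plakins and plakin repeat genes, 1 rose, 1 fell and 2 were not called. PLEC, the plakin that binds keratin at hemidesmosomes, fell from 766 ± 158 to 342 ± 117 CPM (SD, n = 2, edgeR adjusted p = 0.00562, and 0.0584 by glmTreat). It is GC-rich at 67.0%, with a log2 ratio of -0.71 between the PC-3-RRM2 libraries. EPPK1 rose 1.90-fold from 1.97 ± 0.501 CPM, and it was not called without PC-3-EV replicate 1 (log2 fold change 0.65, adjusted p = 0.124), in glmTreat (adjusted p = 0.221) or by DESeq2 (adjusted p = 0.0509).

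Of 9 hemidesmosome genes, which anchor cells to the matrix, 3 rose, 3 fell and 3 were not called. The integrin chain ITGA6 fell from 965 ± 10.7 to 524 ± 35.2 CPM, whereas LAMB3, a chain of laminin-332, rose 2.09-fold (SD, n = 2, edgeR adjusted p = 0.000135 and 0.000509). The hemidesmosomal collagen COL17A1 had 11 and 12 counts in PC-3-EV against 52 and 51 in PC-3-RRM2. Of 11 adherens junction genes 3 rose, 1 fell and 7 were not called. The classical cadherins CDH3 and CDH1 rose 8.67-fold and 4.95-fold, and the nectin NECTIN4 rose from 6 and 3 counts to 313 and 288. NECTIN1 fell from 37.8 ± 1.83 to 21.4 ± 2.36 CPM (edgeR adjusted p = 0.00115, and 0.0922 by glmTreat). Of the 3 relatives of PKP4 in the p120 catenin subfamily, 0 were called, with CTNND1 at 373 ± 11.7 and 352 ± 16.0 CPM and ARVCF at 4.50 ± 1.58 and 4.56 ± 1.37 CPM.

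Of 11 tested intermediate filament genes, 5 rose, 2 fell and 4 were not called. KRT7 rose 8.24-fold, KRT16 rose from 9 and 16 counts to 247 and 175, KRT17 rose from 0 and 1 to 703 and 491, and KRT20 fell from 9.65 ± 0.00318 to 1.14 ± 0.0689 CPM (SD, n = 2). KRT16 and KRT17 can share reads with each other and with related sequences. Of 15 epithelial transcription factors and repressors, 9 rose, 2 fell and 4 were not called. The grainyhead factors GRHL2 and GRHL3 rose, GRHL2 from 14 and 12 counts to 576 and 628 and GRHL3 from 7 and 3 to 129 and 108. OVOL1 rose from 2 and 1 counts to 114 and 111, and EHF rose from 26.0 ± 1.36 to 130.1 ± 9.72 CPM (SD, n = 2, edgeR adjusted p = 2.97e-06). The repressor genes SNAI2 and SNAI1 also rose, 2.19-fold and 2.97-fold (edgeR adjusted p = 0.000141 and 0.00182), and ZEB1 and ZEB2 were not called. Those that fell were KLF5, from 158 ± 0.266 to 78.7 ± 3.82 CPM, and KLF4, from 55.4 ± 2.06 to 27.7 ± 0.351 CPM. The list mixes repressors with other factors, so its counts and its median do not show a shift towards an epithelial state. Over the 80 tested genes of all related lists, without the 10, 25 rose and 12 fell, beside 9.97% and 8.19% of all genes. The median log2 fold change was -0.44 for the other desmosomal genes, -0.14 for the other plakins, 0.03 for the p120 subfamily, -0.15 for the hemidesmosome, 0.04 for adherens junctions, 0.14 for intermediate filaments and 1.11 for the transcription factors, beside 0.00 for all genes.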

How the data were processed

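The data were 4 RNA-seq libraries. The authors used Partek Flow to count reads by gene, and the deposited values are estimated counts without normalization. Its version, aligner, annotation and strandedness were not given in the sources used here. Of 16499 symbols matched to RefSeq, 99.8% overlapped the gene of that name on GRCh38. Symbols turned into dates (23) were not named. Columns were matched to samples by title, with R2 read as RRM2. One label field gives each library a different cell name in a running series, and all 4 were taken as PC-3 from their titles.

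Counts were rounded, filtered with filterByExpr and scaled by TMM. Groups were compared over all 15781 genes by edgeR's quasi-likelihood test (edgeR 4.0.16, R 4.3.3), p-values adjusted after Benjamini and Hochberg, and called by the study's thresholds, a fold change above 1.5 with an adjusted p under 0.05. Intervals are 95% intervals from the fit's standard errors. Those of count ratios are exact and cover counting error only. Lengths and GC content came from GENCODE release 29. The test was run on 5 simulated data sets with 200 changed genes and no trend with GC content. It recovered 80.8% of 2-fold changes, with 9.4 false calls on average. The real data had more called genes and such a trend, so this does not cover their setting.

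Alternatives were other scaling factors, filters, glmTreat, DESeq2 (version 1.42.0), limma-voom (version 3.58.1), a replicate block, leaving out each library and a GC offset. Named genes were the 10, RRM2, up to 4 called genes of smallest p in each list (or the 2 of highest level) and called neighbours of the cadherins. Some of these genes are not reported here. All members and lists were chosen with earlier results of these data known.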

Additional observations from a re-analysis of the deposited data

How the results depend on the processing

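DSC2 and PKP4 were called in the main test and under every alternative but glmTreat, where 0 of the 10 genes and 1260 of all genes were called, against 2 and 2866. Leaving out 1 library gave 2 to 4 called members (4 without PC-3-RRM2 replicate 1, which added PKP3 and EVPL) and 2562 to 3329 genes. Genes with a log2 fold change near 0 changed sign. Leaving out 1 library gave -0.0369 to 0.0416 for PKP2, -0.0084 to 0.0724 for PERP, -0.16 to 0.11 for PPL, -0.63 to 0.26 for PKP3 and -0.32 to 0.3869 for ARVCF, and the GC offset gave -0.0100 for PKP2, 0.0410 for PKP3, -0.0166 for PERP and 0.0818 for PPL. The cause was not tested. Replicate numbers did not pair the libraries: deviations from the group means of libraries with the same number correlated at r = -0.244 across genes. With the replicate block 2 members and 3024 genes were called, and without the fold threshold EVPL passed the adjusted p (0.0266) and DSG2 did not (0.168). With the crossed pairing, added after seeing the data, 2 members and 3253 genes were called. Genes that passed the adjusted p, whatever the fold, were 5403 in the main test, 8320 with the GC offset, 8460 with the crossed pairing, 3382 and 3339 without PC-3-EV replicate 1 and 2, and 7391 without PC-3-RRM2 replicate 1. In the main test the widest intervals of the 10 genes on the log2 scale were those of PKP3, EVPL and JUP.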

Other observations

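Other genes near the desmosome were listed too. Of 5 relatives of PERP in the PMP22 family, 1 fell and 4 were not called. EMP1, an epithelial membrane protein, fell from 532 ± 6.76 to 270.3 ± 11.3 CPM (SD, n = 2, log2 fold change -0.98, edgeR adjusted p = 6.24e-05). Of 8 tested genes listed for the cornified envelope, which PPL and EVPL help to build, 2 rose and 6 were not called. The transglutaminase TGM2 rose 4.65-fold and sciellin, SCEL, 2.08-fold. TGM2 is found in many tissues and is not particular to this envelope, though it is counted in the list. TGM1, the transglutaminase of the envelope, was not called (fold change 1.45, interval 1.02 to 2.05, edgeR adjusted p = 0.0937). It had 70 and 51 counts in PC-3-EV against 86 and 69 in PC-3-RRM2, and was named after its values were seen. The median log2 fold change was -0.07 for the PMP22 family and 0.33 for the cornified envelope list, TGM2 included.

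A list of 14 genes was meant to hold kinases, proteases, motors and other proteins that act on desmosomes. Of these 2 rose, 2 fell and 10 were not called, and their median lay at 0.08 on the log2 scale. One of those that fell, PKD2 on chromosome 4, is the gene of polycystin 2, a cation channel, and was listed by a mistaken symbol. It is counted in the list and in the total of the related lists. EGFR, whose signalling loosens desmosomes in cultured epithelia, rose from 119 ± 0.0481 to 300.1 ± 7.73 CPM (SD, n = 2, edgeR adjusted p = 1.23e-05). The serine protease KLK5, which cleaves desmogleins in skin, had 1 count in each PC-3-EV library and 69 and 79 in PC-3-RRM2. SRC fell to 0.608 of its PC-3-EV level and was not called without PC-3-RRM2 replicate 2 (log2 fold change -0.56) or by glmTreat (adjusted p = 0.358). The call for PKD2 was lost without PC-3-RRM2 replicate 1 (-0.54) and in glmTreat (adjusted p = 0.630).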
